A study of Homo sapiens with 19 samples.

Results

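This account covers the superenhancers of 231-D, a highly metastatic clone of the human triple-negative breast cancer line MDA-MB-231, set against those of its parental line, 231Pa. The members are the 566 regions of 3 hg19 lists made by the authors: 225 listed for 231-D alone (231-D-specific), 158 listed for 231Pa alone (231Pa-specific) and 183 common to both. All lists of the series together hold 1958 superenhancers. The comparison rests on 2 H3K27ac ChIP-seq replicates and 1 input of each line. The labels give 231Pa no transgene and 231-D luciferase, so the lines differ in this too. For OCT-2, 2 ChIP-seq replicates of 231-D gave a list of 917 peaks, and no OCT-2 ChIP of 231Pa was analysed here. The labels of those OCT-2 samples add that the clone has stable transgene expression and is polyclonal, and call the OCT-2 endogenous. The lists hold positions without read counts or scores, so the depth is unknown, no value per replicate exists, and the spread between libraries enters no p-value.

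Superenhancers are long stretches of the genome in which several enhancers lie close together and carry dense acetylation of lysine 27 on histone H3 (H3K27ac), a mark of active enhancers and promoters. They are often found near genes that define the identity of a cell, and cancer cells can gain them near oncogenes. OCT-2, encoded by POU2F2, is a transcription factor of the POU family that binds octamer elements in DNA and is best known from B lymphocytes. Regions are named here by hg19 position and not by gene, because the gene positions used here are of another build.

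The superenhancers of the clone alone were shorter than those of the parent alone at the lower quartile, the median and the upper quartile, although the widest specific region was one of the clone's. The middle 50% of the 231-D-specific regions lay between 48.2 and 107 kb, and that of the 231Pa-specific regions between 62.3 and 139 kb. Regions of at least 100 kb made up 30.2% of the 231-D-specific list (68 of 225, exact 95% interval 24.3 to 36.7%) and 50.6% of the 231Pa-specific list (80 of 158, interval 42.6 to 58.7%). Only 2 of the 231-D-specific regions reached 200 kb, against 12 of the 231Pa-specific ones. The narrowest measured 11.7 kb in the 231-D-specific list and 21.98 kb in the 231Pa-specific one. The 225 regions of the clone covered 18.3 Mb and the 158 regions of the parent 17.3 Mb. Common regions covered 27.3 Mb. Each of them is the union of 2 calls (177 regions), 3 (4 regions) or 4 (2 regions), so their widths stand for the joined extent of both lines. Width is part of how superenhancers are called and is given as a description, without a test.

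**Figure D1:**
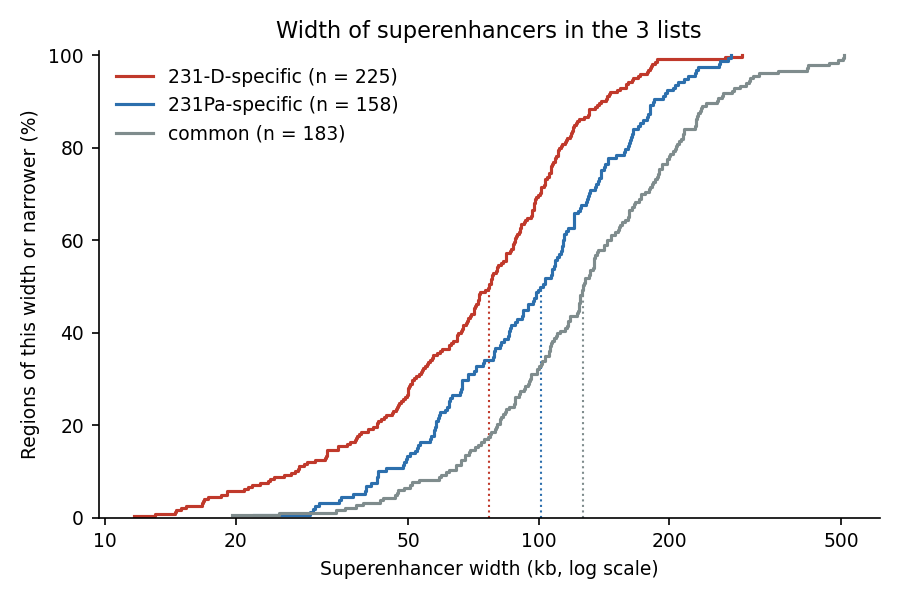
Cumulative share of regions (y axis, %) against superenhancer width (x axis, kb, log scale) for the 231-D-specific, 231Pa-specific and common lists, with dotted lines at the medians. The curve of the 231-D-specific list lies to the left, with a median of 76.8 kb, that of the 231Pa-specific list in the middle (101.6 kb) and that of the common list, which holds unions of calls, to the right (126.9 kb).

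The widest regions of the clone alone were, after one on chromosome 14 (23290311 to 23585507, 295 kb), a region of 270.0 kb on the long arm of chromosome 5 (172142115 to 172412069), one of 188 kb on chromosome 21 (30444872 to 30632943) and one of 186 kb on the long arm of chromosome 16 (81434361 to 81620176). None of these 4 held an OCT-2 peak. Ranks 5 to 10 measured 172 to 183 kb and lay on chromosomes 5, 10, 1, 3, 19 and 8, and of these the regions on 5, 3 and 8 held OCT-2 peaks. In the 231Pa-specific list, the region of 279 kb on chromosome 1 was followed by one of 274 kb on chromosome 4 (77431390 to 77705524), one of 263 kb on chromosome 14 (54552208 to 54814850) and one of 261 kb on chromosome 1 (115655393 to 115916845). Of these 4, the regions of 279 and 263 kb held 1 OCT-2 peak each, and the others held none. Ranks 5 to 10 measured 209 to 234 kb. They lay on chromosomes 18, 15, 3, 8, 12 and 9, and of these the regions on 18 and 3 held 1 OCT-2 peak each. The widest common regions lay on the long arm of chromosome 20 (48703654 to 49211442, 508 kb), on the short arm of X (12947256 to 13453005, 506 kb) and on chromosomes 8, 9 and 1 (490.0, 469 and 420 kb).

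Specific superenhancers of both lines lay on most chromosomes. In the main test, by chromosome arm, no imbalance passed the threshold. With whole chromosomes, an alternative setting, chromosome 5 leaned to the clone alone and chromosome 2 to the parent alone. Neither passed when close regions of the same class were counted once. Over all 383 specific regions, 58.7% were 231-D-specific. On chromosome 5 this share was 81.8%, with 27 regions of the clone alone against 6 of the parent alone (exact 95% interval 64.5 to 93.0%). On chromosome 2 it was 31.2%, with 10 against 22 (interval 16.1 to 50%). Of 16 chromosomes with at least 10 specific regions these 2 passed the threshold of 0.05, 1 in each direction, which is 6.25% of those tested for either direction. By Fisher's exact test (two-sided) with Benjamini-Hochberg adjustment, the odds ratio was 0.29 for chromosome 2 (interval 0.13 to 0.63, adjusted p = 0.020) and 3.45 for chromosome 5 (interval 1.39 to 8.58, adjusted p = 0.040). The test takes regions as independent, although neighbours on a chromosome may not be. With same-class regions closer than 1 Mb counted once, neither chromosome passed (9 against 17 on chromosome 2, Fisher exact test, adjusted p = 0.16; 19 against 6 on chromosome 5, adjusted p = 0.21).

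**Figure D2:**
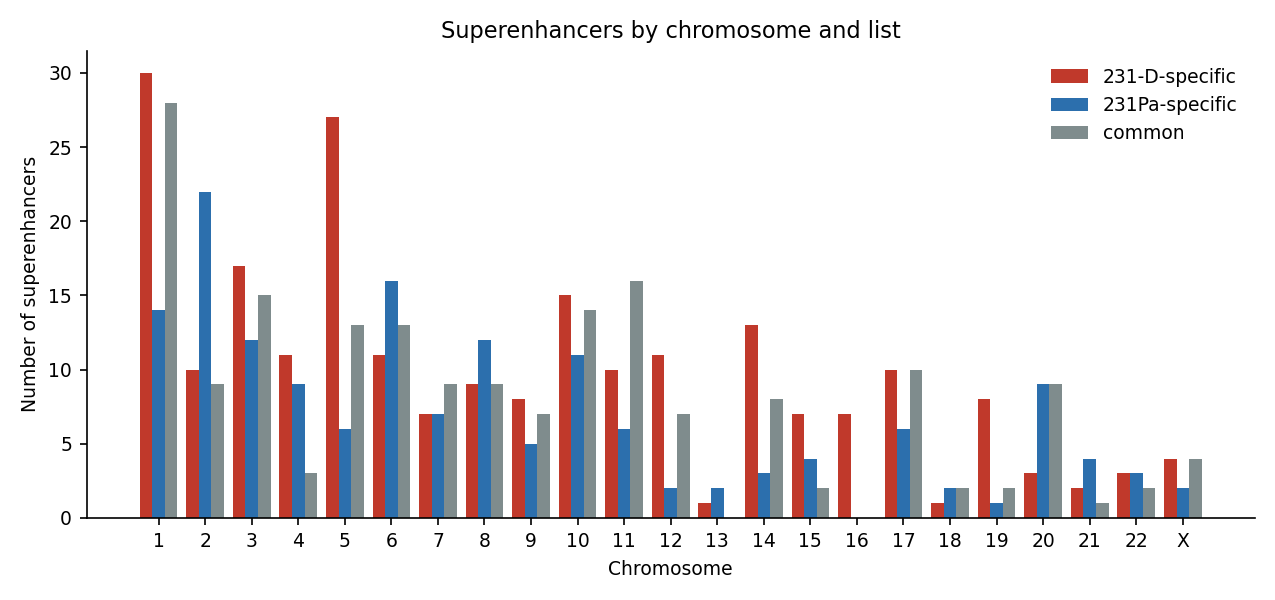
Number of superenhancers (y axis) on each chromosome (x axis) in the 231-D-specific, 231Pa-specific and common lists. Chromosome 5 holds 27 regions of 231-D alone against 6 of 231Pa alone, chromosome 2 holds 10 against 22, and chromosome 16 holds 7 of 231-D alone and no other.

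Split by chromosome arm, the main test, no imbalance passed the threshold. Of the 17 arms with at least 10 specific regions, the Fisher exact test called 0 (0% of those tested) after adjustment, and 3 had an unadjusted p under 0.05. On the short arm of chromosome 6 there were 6 regions of the clone alone and 14 of the parent alone, and the long arm of chromosome 2 gave the same counts (odds ratio 0.28, Fisher exact test, adjusted p = 0.081 for each). The long arm of chromosome 5 carried 21 regions of the clone alone and 6 of the parent alone (odds ratio 2.61, Fisher exact test, adjusted p = 0.24). The short arm of chromosome 5 had 6 regions of the clone, 0 of the parent and 3 in common. It entered the test only with a lower minimum of 5 specific regions an arm (Fisher's exact test, p = 0.045, adjusted p = 0.26). Chromosome 2 leaned to the parent on both arms, with 4 against 8 on the short arm (Fisher exact test, adjusted p = 0.27). Chromosome 14 leaned to the clone (13 against 3, Fisher exact test over arms, adjusted p = 0.27), as did the long arm of chromosome 12 (9 against 2, adjusted p = 0.38).

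Smaller chromosomes gave some one-sided counts that the minimum kept out of the arm test. Chromosome 16 held 7 regions of the clone, 6 of them on its long arm, with 0 of the parent and 0 in common. Under the minimum of 5 that long arm gave the same values as the short arm of chromosome 5 (Fisher's exact test, adjusted p = 0.26). Chromosome 19 held 8 of the clone and 1 of the parent. The short arm of chromosome 20 held 0 of the clone and 4 of the parent, and the whole of chromosome 20 held 3 against 9 (Fisher exact test over chromosomes, adjusted p = 0.17). By covered length the share of the clone was 76.2% on chromosome 5 and 25.7% on chromosome 2, so the direction was the same as by region count.

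Of 360 neighbouring pairs of specific regions on the same chromosome, with common regions passed over, 60% were of the same class: 138 pairs of 231-D-specific regions, 78 of 231Pa-specific regions and 144 mixed pairs. Among all 4288 pairs of specific regions on the same chromosome, neighbours or not, 55.3% were of the same class. The difference was not tested. The longest row of the clone held 10 regions on chromosome 14, from 55031719 to 105501486, with 6 common regions between them and none of the parent. Just before its start lay the 231Pa-specific region of 263 kb named above, 217 kb away. The longest row of the parent held 9 regions on chromosome 8, from 32081080 to 102219861, with 3 common regions between them. Chromosome 5 carried a row of 8 regions of the clone from 72497774 to 95451414 and chromosome 6 a row of 7 of the parent from 38199301 to 65424338. All 7 regions of chromosome 16 form another row of the clone.

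The nearest neighbours of a specific region came from all 3 lists. The nearest superenhancer of any list was another 231-D-specific region for 42.7% of the 231-D-specific regions, where that list makes up 39.6% of all other regions. It was a 231Pa-specific region for 20.4% of them, against 28.0% of all others, and a common region for 36.9%, against 32.4%. For 231Pa-specific regions the nearest was of their own class in 34.2% (27.8% of all others), of 231-D in 29.7% (39.8%) and common in 36.1% (32.4%). These shares are descriptions without a test. Neighbours were sought on the same chromosome, while the shares of all others are over all chromosomes. The chromosomes differ in their mix of lists, and the shares were not adjusted for this. The median gap to the next region of the same class was 2652 kb in the 231-D-specific and 3182 kb in the 231Pa-specific list. These lists hold 225 and 158 regions, and such gaps shorten as a list grows. The medians therefore do not compare spacing at an equal number of regions.

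Gaps between any 2 listed regions were at least 22.9 kb. Few regions of any list bordered a common one. Within 50 kb of a common region lay 9 of 225 regions of the clone (4%, exact 95% interval 1.85 to 7.46%) and 6 of 158 of the parent (interval 1.41 to 8.08%). Among common regions, 5 of 183 (2.73%, interval 0.89 to 6.26%) lay this close to another common region. Between the specific lists, the closest neighbours lay on the short arm of chromosome 9, 66.6 kb apart. They were a 231-D-specific region of 49.1 kb (32383973 to 32433110, 1 OCT-2 peak) and a 231Pa-specific region of 209 kb (32499746 to 32709143, no peak). On chromosome 10 the regions 81025784 to 81108769 (231-D-specific, 83.0 kb) and 80826231 to 80955943 (231Pa-specific, 130 kb) were 69.8 kb apart. The next pairs lay on chromosomes 6, 17 and 1, with gaps of 85.7, 87.9 and 91.1 kb. In each of these 5 pairs the 231Pa-specific region held no OCT-2 peak, and the 231-D-specific regions on chromosomes 9 and 17 held 1 each.

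Regions of one class closer than 1 Mb to each other were joined into clusters. In the 231-D-specific list, 65 of 225 regions (28.9%, interval 23.1 to 35.3%) lay in 27 such clusters, and in the 231Pa-specific list 39 of 158 (24.7%, interval 18.2 to 32.2%) lay in 18. The order of these shares depended on the distance, since with joins under 500 kb they were 18.7% for the clone and 21.5% for the parent. A longer list also has more occasions for close pairs, and the shares were not adjusted for the number of regions. The tightest cluster of 4 regions of the clone spanned 575 kb on the long arm of chromosome 4 (74525997 to 75100867), with 2 OCT-2 peaks and no region of another list inside. Another 4 regions spanned 1448 kb on the long arm of chromosome 5 (72497774 to 73945448). They measured 136, 12.99, 183 and 27.9 kb and held 1, 0, 1 and 2 OCT-2 peaks. The third cluster held 3 regions in 410.0 kb, also on the long arm of chromosome 5 (95041372 to 95451414), with 2 OCT-2 peaks, both in its first region. The largest cluster of the parent held 4 regions in 1469 kb on the short arm of chromosome 2 (27885743 to 29354516). They measured 193, 52.4, 142 and 42.5 kb, held no OCT-2 peak, and had 1 region of another list among them. The second, on the short arm of chromosome 1 (115655393 to 117054783), held 3 regions and 1 OCT-2 peak, and the third was a pair on the short arm of chromosome 8 (32081080 to 32203383) without a peak.

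By share of regions, OCT-2 peaks of the clone lay more often in common superenhancers than in those of the parent alone. The share for the clone alone stood between them, and its difference from either did not pass the threshold. Common regions are wider unions of calls. Per Mb, given below, the clone list had the highest value, with an interval that overlapped that of the common list. Over all 566 regions, 130 (23%) held at least 1 peak by an overlap of 1 bp. The share was 30.6% (56 of 183) for common, 22.7% (51 of 225) for 231-D-specific and 14.6% (23 of 158) for 231Pa-specific regions. Between the parent alone and the common list the difference passed the threshold (odds ratio 0.39 with limits of 0.22 and 0.66; Fisher's exact test, two-sided and adjusted over 3 pairs, p = 0.0015). Between the clone alone and the parent alone it did not (odds ratio 1.72 with limits of 1.00 and 2.96; Fisher's exact test, p = 0.050 before and 0.072 after adjustment), nor between the clone alone and the common list (odds ratio 0.66 with limits of 0.43 and 1.04; Fisher's exact test, adjusted p = 0.072). The peaks are those of 231-D, so a peak in a 231Pa-specific region is one found in the clone, where that region was not listed as a superenhancer.

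Because the lists differ in width, the shares were also compared among regions of like width. Within 4 width strata, cut at the quartiles of each pair of lists, the 231-D-specific regions held a peak more often than the 231Pa-specific ones (Mantel-Haenszel odds ratio 2.14, exact conditional test, adjusted p = 0.020 over 3 pairs). In strata cut anew for each other pair, the odds ratio was 0.46 for the parent alone against the common list (exact conditional test, adjusted p = 0.020). For the clone alone against the common list it was 0.85 (exact conditional test, adjusted p = 0.53). Widths of common regions are those of joined calls, so comparisons with that list are not of regions of like width. Among regions of 53.4 to 85.5 kb, 13 of 59 231-D-specific and 3 of 36 231Pa-specific regions (8.33%) held a peak. Among those of 85.5 to 120 kb the shares were 16.9% (10 of 59) and 5.41% (2 of 37), and above 35.1% (13 of 37) and 23.7% (14 of 59). In the narrowest class, under 53.4 kb, they were 21.4% (15 of 70) and 15.4% (4 of 26). The share was higher in the clone list in each of the 4 width classes, and no single class passed the threshold (Fisher exact tests, adjusted p of 0.24 to 0.58). Regions of the parent with a peak were wider than those without (median 137 against 97.5 kb), while in the clone list the medians were 78.0 and 75.9 kb.

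**Figure D3:**
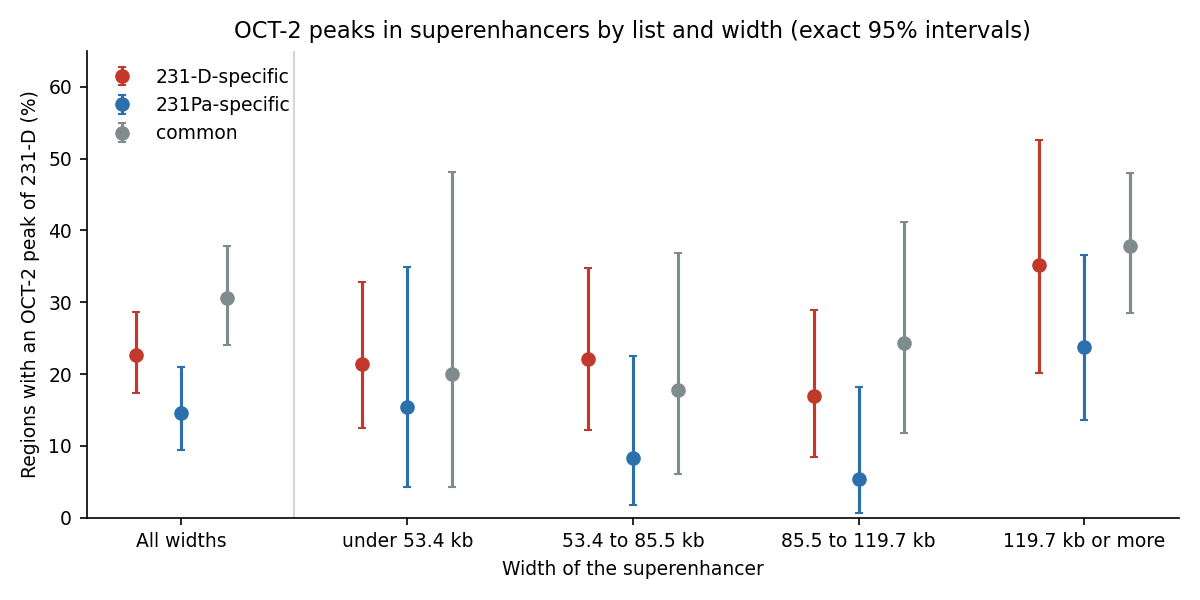
Share of regions with an OCT-2 peak of 231-D (y axis, %) for all widths and for 4 width classes (x axis), by list, with exact 95% intervals. In each of the width classes the 231-D-specific points lie above the 231Pa-specific ones, with intervals that overlap.

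On chromosome 5, which holds 86 of the 917 OCT-2 peaks (9.38%), 9 of the 27 regions of the clone alone and 1 of the 6 of the parent alone held a peak. Without that chromosome, which was tried once these counts were known, the odds ratio of the clone alone against the parent alone was 1.59 (Fisher exact test, adjusted p = 0.13). On chromosome 2, with 44 peaks, 2 of 10 regions of the clone and 0 of 22 of the parent held one. Chromosome 6 went the other way, with 1 of 11 in the clone and 4 of 16 in the parent. On the long arm of chromosome 17 it was 4 of 10 in the clone and 0 of 5 in the parent.

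Most regions with OCT-2 held a single peak. In the 231-D-specific list 7 regions held 2 peaks each, in the 231Pa-specific list 3 did, and 11 common regions held 2 to 4. The widest of the 7 was a region of 179 kb on the short arm of chromosome 3 (71031750 to 71211016), with peaks at 71115483 to 71115709 and 71158700 to 71158950. The smallest was a region of 27.9 kb on the long arm of chromosome 5 (73917564 to 73945448), whose peaks at 73935016 to 73935256 and 73936470 to 73936757 lay close together. The other 5 lay on chromosome 1 (68144492 to 68260133 and 98467448 to 98576809), chromosome 19 (45873227 to 46019480) and the long arm of chromosome 5 (95041372 to 95118133 and 150399984 to 150503427).

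In the 231Pa-specific list the 3 regions with 2 peaks lay on chromosome 8 (94833954 to 95031910, 198 kb), chromosome 22 (37623820 to 37755614, 132 kb) and the short arm of chromosome 6 (26020378 to 26128030, 108 kb). In the last of these both peaks, at 26033772 to 26034116 and 26043867 to 26044119, lay left of the middle. The common list held the most peak-rich region, with 4 peaks in 490.0 kb on the long arm of chromosome 8 (128806052 to 129296065). Common regions with 3 peaks lay on the short arm of chromosome 1 (59473800 to 59641137, 167 kb) and the short arm of chromosome 5 (33763143 to 33862276, 99.1 kb). A common region with 2 peaks (59191145 to 59401658, 211 kb) lay 72.1 kb from the former.

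Per length, OCT-2 peak densities in the regions of the clone alone and of the parent alone had intervals that did not overlap, while the interval of the common regions overlapped both; the difference itself was not tested. In the clone list 58 peaks made 3.17 per Mb (exact 95% interval 2.41 to 4.10), against 71 in common regions, 2.597 per Mb (2.03 to 3.28), and 26 in regions of the parent alone, 1.505 per Mb (0.98 to 2.21). These intervals cover counting error only. Just outside the edges peaks were few. The edges were set by the superenhancer calls, so the windows beside them depend on how the lists were made. In the first 25 kb on either side, other listed regions left out, there was 1 peak beside 231-D-specific regions in 11.2 Mb, 0 beside 231Pa-specific regions in 7.90 Mb (an upper bound of 0.47 per Mb) and 2 beside common regions in 9.15 Mb. Between 25 and 50 kb the density was 1.30 per Mb (interval 0.71 to 2.18) beside the 231-D-specific, 0.53 (0.14 to 1.35) beside the 231Pa-specific and 0.34 (0.07 to 1.00) beside the common regions. From 100 to 250 kb it was 0.60, 0.39 and 0.41 per Mb. With regions extended by 50 kb on each side, the share with a peak was 27.1% for the clone alone and 16.5% for the parent alone (odds ratio 1.89 with limits of 1.13 and 3.15; Fisher's exact test, adjusted p = 0.027).

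**Figure D4:**
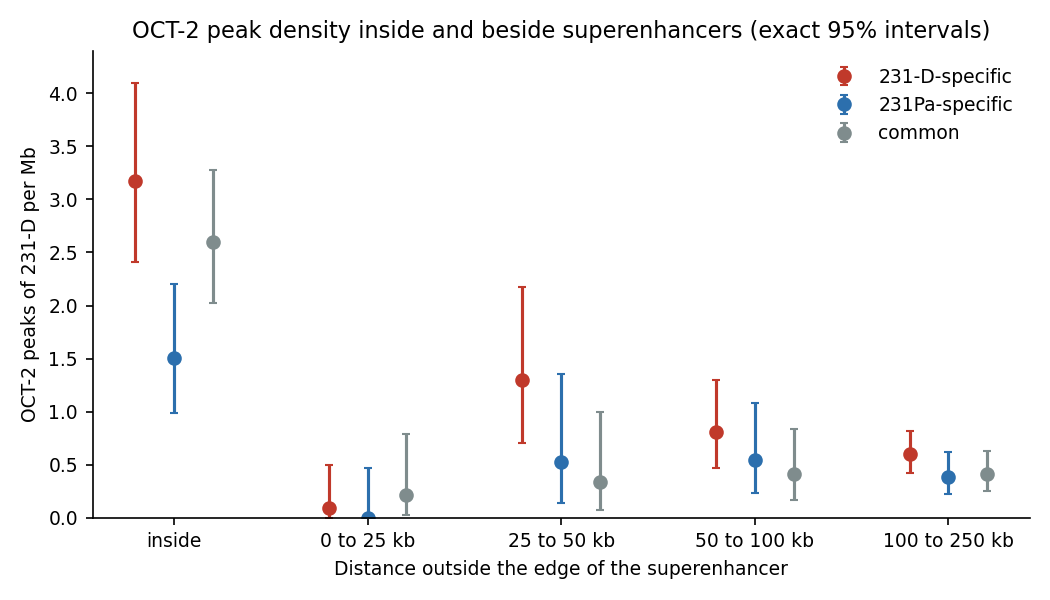
OCT-2 peaks of 231-D per Mb (y axis) inside superenhancers and in 4 windows outside their edges (x axis), by list, with exact 95% intervals for counting error. The density inside is 1.505 to 3.17 per Mb, and in the first 25 kb outside it is 0.22 per Mb or less in each list.

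Within the regions, the share of peaks near the middle had an interval that included 50% in each list. The middle 50% of the width held 33 of 58 peaks in the 231-D-specific list (56.9%, exact 95% interval 43.2 to 69.8%), 13 of 26 in the 231Pa-specific list (50%, interval 29.9 to 70.1%) and 39 of 71 in the common list (54.9%, interval 42.7 to 66.8%). Of all 917 peaks, 762 lay outside the 3 lists. The 174 regions of the clone alone without a peak had the nearest one at a median of 682 kb, and 72 of them had none within 1 Mb. For the 135 such regions of the parent alone the median was 858 kb, and 60 had none within 1 Mb.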

How the data were processed

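Antibodies against H3K27ac or OCT-2 were used for precipitation, per the labels' protocols. HOMER, bedtools, Bowtie and Bowtie2 2.2.2.6 are named in the submitters' processing notes, without roles. Thresholds for calling and subtraction are not given in the sources used here. Each deposited file lists intervals, named hg19 by the authors, without score, count or signal. Each specific region carries 1 call, each OCT-2 peak 2. For OCT-2, each peak is the union of the calls of 2 replicates. The lists keep no value per replicate, and the labels do not say whether the replicates came from separate cultures.

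From the lists, widths, gaps between edges and overlaps were computed; coordinates are printed 1-based. Arms were split at the hg19 centromere positions of the public assembly, entered by hand; no region or peak touched a centromere. The shares of classes were compared by Fisher's exact test (two-sided) or an exact conditional test over width strata, with Benjamini-Hochberg adjustment within each family and a threshold of 0.05. Odds ratios have Woolf, shares exact (Clopper-Pearson) and densities exact Poisson 95% intervals. The arm and strata tests were tried on shuffled labels or simulated counts. Both treat regions as independent, so dependence between neighbours was not checked. Named regions are the widest, the richest in peaks, the largest clusters and the closest pairs of unlike specific regions. Some that this rule takes are given by number or range, and those on chromosomes with one-sided counts were chosen after their values were seen. The members and lists were chosen with earlier results of these data known. No gene was named and no sequence read, since the gene and promoter tables used here are of GRCh38. Python 3.11.15 was used with matplotlib 3.10.9, pandas 2.3.3, scipy 1.17.1 and numpy 2.4.6.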

Additional observations from a re-analysis of the deposited data

How the results depend on the processing

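The higher share with an OCT-2 peak in the regions of the clone alone kept its direction against the parent alone under 11 alternatives, and passed the threshold under 2 of them: with regions extended by 50 kb (odds ratio 1.89) and within 4 width strata (2.14). By the middle of the peak, or with regions extended by 10 kb, the counts were those of the main test (51 of 225 and 23 of 158). These settings therefore add no information. Where the strata were applied to the other pairs, that was chosen after seeing the data. The number of called places was 2 with whole chromosomes in place of arms, and 0 with same-class regions merged. The median width moved to 92.9 kb for the clone alone when only regions of at least 50 kb were kept. For common regions, the width divided by the number of merged calls had a median of 63.5 kb. Merged calls can overlap, so this quotient is not the width of a call in either line. With joins under 500 kb the share in clusters was lowest for the clone (18.7%, against 21.5% for the parent and 19.1% for the common list). Under 2 Mb it was highest for the clone (43.1%, against 39.9% and 34.4%), as it was under 1 Mb. The clone list is also the longest, and the shares were not adjusted for this. Next to a common region lay 0% of either specific list at the shortest distance tried, and 1.78% of the clone and 0% of the parent within 25 kb. No paired analysis was possible because the lists do not separate the replicates. For the same reason no replicate could be left out. No score was used, so a stricter calling threshold was not run.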
